A study of Xenopus laevis with 79 samples.

Results

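The African clawed frog Xenopus laevis is an allotetraploid. Its genome joins the chromosome sets of a pair of ancestral species, which are called the L (long) and S (short) subgenomes, and most genes were therefore present as an L copy and an S copy, a homeolog pair. Since the genomes merged, some pairs have kept both copies active and others have lost one, by deletion, by decay of the coding sequence or by loss of expression, and the S subgenome is known to have lost more genes than the L subgenome. The pairs described here are those in which a copy was strongly expressed somewhere in the early embryo while its partner was nearly silent everywhere. They were found from the locus names, which end in .l or .s, and from the CPM (counts scaled to a common library size with TMM factors) of both copies in 79 RNA-seq libraries. Pairs were chosen by these levels: a pair was taken when a copy (the active copy) reached a highest CPM above 50 and the other (the silent copy) had a highest CPM below 1. Of 45099 loci, 7982 pairs had both names, 3193 of these had a copy above 50 CPM, and 132 (4.13%) met both conditions.

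The study microdissected the ectoderm of wild type embryos, obtained by in vitro fertilization, at developmental stages (St.) 12.5 and 14 of the Nieuwkoop and Faber series, and took the neural crest (NC, 4 libraries) and placodes (Pc, 2 libraries) at St. 17. At St. 12.5 the 7 regions were the anterior and posterior neural plate (NPa and NPp, 3 libraries each), the anterior border of the plate together with preplacodal ectoderm (ANB/PPE, 3), the anterior, posterior and lateral neural border (NBa, 4, NBp, 3, and NBl, 3) and the nonneural ectoderm (NNE, 3). At St. 14 they were NPa (3), NPp (4), the anterior fold together with preplacodal ectoderm (ANF/PPE, 5), NBa (6), NBp (5) and the anterior and posterior NNE (NNEa and NNEp, 3 each), with 2 libraries of undivided NP and 4 of undivided NB that entered no comparison. A series of 8 stages was sampled as whole embryos, with 2 libraries each, from St. 11-11.5 to St. 18-19. The library codes of 7 of these stages form a pair of consecutive runs, and the St. 14 libraries carry codes outside them. Those of St. 14 also stood apart from the neighbouring stages (actc1.l averaged 110.6 CPM, against 210.1 CPM at St. 13 and 368 CPM at St. 14-15) and entered no contrast of whole embryos.

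The libraries held 8898486 to 18468048 counts on loci (median 13134905), so that 1 CPM stood for 8.9 to 18 counts. The NP marker sox2.1 averaged 252 CPM in NPa and 174 CPM in NPp at St. 12.5 against 4.87 CPM in NNE, and the epidermal marker tp63.s averaged 374 CPM in that NNE. Explants of the posterior and of the lateral border also held RNA of genes known from mesoderm: 10 loci of 5 listed mesoderm genes (myod1, myf5, t, mespa and actc1) summed to 193 to 797 CPM in NBp, 76.8 to 446 CPM in NBl and 28.9 to 532 CPM in NPp of St. 12.5, against 0.155 to 1.12 CPM in NPa. At St. 14 the sums were 54.1 to 182 CPM in NPp, 41.4 to 178 CPM in NBp, 14.4 to 31.1 CPM in NPa and 239 and 2230 CPM in the undivided NP. The sums differed in content. In St. 12.5 NBp, t.s averaged 242 CPM, t.l 145 CPM and myod1.s 7.64 CPM, and in NBl t.s averaged 136 CPM and t.l 87.7 CPM. In St. 14 NPp, actc1.l averaged 33.2 CPM, actc1.s 27.1 CPM and t.s 25.7 CPM. The St. 12.5 NPp replicate 3 stood apart. It was the only library of St. 12.5 whose code starts with B100 and not B108, so library and code prefix cannot be told apart. It had the lowest TMM factor of the series (0.806) and held the highest CPM of 20 of the 132 active copies (15.2%, against 12.3% of the other loci above 50 CPM), and without it the rule found 126 pairs (125 of them among the 132). At St. 14, 4 pairs of libraries of the same region carry the same embryo number (NPa replicates 1 and 2, NBa replicates 5 and 6, and a pair of NNEp and of ANF/PPE). The study describes its replicates as coming from different embryos and clutches. In NPa and NBa this pair differed least of its group (chi-square per degree of freedom 26.2 and 17.6). In NNEp and ANF/PPE it did not (58.7 and 58, where the closest replicates had 13.8 and 25.8). Whether each number stands for a single embryo was not tested.

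The S copy was the silent one in 88 of the 132 pairs (66.7%) and the L copy in 44. Among the 3061 other pairs with a copy above 50 CPM, the S copy was the lower one in 57.3%. The excess of S was not confined to the most silent copies. The lower copy was S in 8 of the 9 pairs in which it had 0 counts in every library, in 65% of the 123 pairs in which its highest CPM lay above 0 and below 1, in 59.5% of the 42 pairs at 1 to 2 CPM, in 63.7% of the 113 pairs at 2 to 5 CPM and in 70.3% of the 145 pairs at 5 to 10 CPM. In the 1069 pairs at 10 to 50 CPM it was S in 56.3%, and in the 1692 pairs with both copies above 50 CPM it was also S in 56.3%. CPM is not divided by transcript length, so the copies of a pair were not compared per length. These values chose the pairs and are given without a test.

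**Figure D1:**
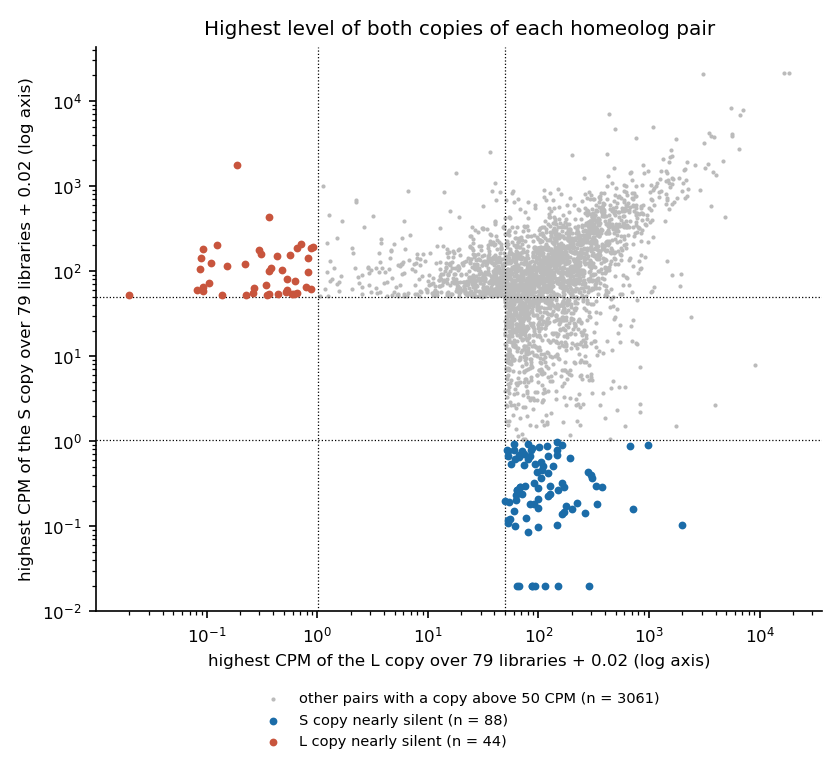
Highest CPM of the S copy (vertical axis) against that of the L copy (horizontal axis) over 79 libraries, both log axes with 0.02 added, for the 3193 pairs with a copy above 50 CPM. Grey points are the 3061 other pairs, blue points the 88 pairs with a nearly silent S copy and red points the 44 with a nearly silent L copy, and the dotted lines mark 1 and 50 CPM.

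The silent copies were close to empty. Over all libraries the 132 active copies held 5963382 counts and the silent copies 6113, which was 0.102% of the pooled counts of the pairs. A silent copy had a median of 21 counts in all 79 libraries together, 9 had 0, 20 had 1 to 3 and 103 had 4 or more. The most in a single library was 15 counts, and the median of their highest levels was 0.283 CPM. The most counts in total fell on diaph1.s (254), the silent copy of a formin that builds actin filaments. Ratios of counts summed over all libraries were taken for the 103 pairs with 4 or more counts on the silent copy. In these the active copy had 25.7 times (loc100498016) to 20500 times (exosc10) the counts of its partner, with a median of 759. Pairs with fewer silent counts were given no ratio, such as loc394967 with 186258 counts against 2. Of the 123 silent copies with any count, 26 had their highest level in a whole embryo library. A read that aligned to several places was not counted, and the part of this step in the low counts of copies that are near-identical to their partner was not tested. The study also assembled transcript models from its reads, and its gene lists give some of these models the names mis12, exoc1 and hace1, which are among the 132 pairs. Such models were not analysed here, so a silent copy is one with few or no counts at its named locus.

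The lower threshold had neighbours on both sides. Just inside it were diaph1 (silent copy at most 0.952 CPM), loc100490391-like (0.913 CPM) and loc100489107 (0.900 CPM), and just outside uggt2 (1.002 CPM), loc100497279-like (1.03 CPM) and rnf219-like (1.03 CPM). At the upper threshold the active copies of emp1 (50.4 CPM), xetrov90012272m (51.9 CPM) and rad50-like (52.1 CPM) were the last inside, and cyb5r4 (49.7 CPM), myeov2 (48.96 CPM) and trmt61a (48.01 CPM) the first outside.

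The pairs were also looked up in a gene list that the rule did not use, the RefSeq annotation of the later assembly Xenopus_laevis_v10.1. Of the 94 pairs with a plain gene name (the other 38 carry loc, xetrov or similar identifiers), the active copy was listed under its name in 74 (78.7%) and the silent copy in 37 (39.4%). In the 2674 other pairs of the same expression level the higher copy was listed in 80.2% and the lower in 77.3%. Neither copy was found by name for 19 and 438 pairs. Of the 75 active copies that could be placed in this annotation, none lay within 5 genes of another. The same was not counted for other genes, so this does not show whether such pairs cluster.

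The 132 pairs were sorted into gene families by patterns in their names. In the lists so formed, they made up 4 of the 202 transcription factor pairs above 50 CPM (1.98%: tcf25, znf383, znf423 and znf532). The signalling list had 1 of its 102 pairs among them (rasal1, a Ras GTPase-activating protein). None of the 28 ribosomal protein, 24 translation factor, 20 glycolysis and intermediary metabolism or 37 chromatin and histone pairs was among them. They held 5.56% of the pairs of membrane transport and ion channels (6 pairs), 3 of 54 of adhesion, junctions and matrix (5.56%), 3 of 64 of splicing and RNA binding (4.69%) and 3 of 68 of the cytoskeleton (4.41%), beside 4.13% of all pairs. The families were assigned from the gene names, and 104 of the 132 pairs matched none of them. Among these 104 were the transcription factor gene rela and also frk, rhoc and diaph1. The lists are therefore incomplete, and these shares are counts without a test. Among the channels were scnn1b and scnn1g-like, subunits of the epithelial sodium channel, which takes up sodium across the epidermis. In both the S copy was the active one.

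The most abundant active copies covered unlike functions and unlike tissues. Highest of all was loc394967.l, a locus without a gene name, at 1983 CPM in St. 14 NNEp, while loc394967.s had 2 counts in the whole series. It was followed by a2m.s, coding for the broad protease inhibitor alpha-2-macroglobulin (1780 CPM in a St. 14-15 whole embryo, a2m.l at most 0.166 CPM), by serp2.l of the endoplasmic reticulum (984 CPM, serp2.s at most 0.889 CPM), by gjb1.l, a connexin of gap junctions (719 CPM, gjb1.s at most 0.139 CPM), and by rhoc.l, a small GTPase of the actin cytoskeleton (675 CPM, rhoc.s at most 0.868 CPM). The others of the first 15 were hnrnpul1.s (435 CPM), nudt21.l (376 CPM), loc100489839-like.l (341 CPM), rcvrn.1.l (335 CPM), myh8-like.l (303 CPM), dgat2.l (302 CPM), loc100490725.l (287 CPM), loc733553.l (280 CPM), exosc10.l (263 CPM) and loc100498546.l (221 CPM). Of the 132 active copies, 98 had a count in every library and 81 were above 1 CPM in every library, the undivided and whole embryo samples included.

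The active copies with a nearly silent L partner were led by a2m.s and hnrnpul1.s, which codes for an RNA-binding protein and was broad at 123 to 435 CPM across all libraries. Behind them stood loc100497513-like.s (208 CPM in St. 12.5 NBl), anpep.s, which codes for the membrane peptidase aminopeptidase N (204 CPM in a whole embryo of St. 14-15), loc100489107.s (191 CPM), acbd6.s, an acyl-CoA binding protein (187 CPM), tyw1.s, a tRNA-modifying enzyme (185 CPM), and champ1-like.s, named after a protein of chromosome alignment (182 CPM). Among their L partners the highest levels ran from 0.0736 CPM (champ1-like.l) to 0.900 CPM (loc100489107.l). Of the 9 pairs without any count on the silent copy, the most abundant were loc100490725.l (287 CPM), arl2bp.l, a binding partner of the small GTPase Arl2 (150 CPM), vma21.l, an assembly factor of the vacuolar proton pump (114 CPM), loc101732272.l (92.5 CPM) and fn3k.l, a kinase that removes sugar from glycated proteins (86.8 CPM). Their partners' 0 counts allowed at most 3 counts in a library.

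A silent copy was not always the only other source. The pair sept2-a sits beside a further septin pair, sept2.l and sept2.s, which reached 172 and 179 CPM. The co-chaperone dnaja4.1, whose S copy had 1 count, has the neighbour by name dnaja4.2.s at up to 37.7 CPM, and rcvrn.2.l and rcvrn.2.s stayed at or below 0.253 CPM. These loci were chosen for their names.

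The active copies were then compared between regions and stages. These tests are not independent of the rule, since an active copy needed more than 50 CPM in only 1 of the same libraries and could pass through the region where it is high. The counts are therefore set beside those of the other loci above 50 CPM, which met the same level. The values and adjusted p-values of single members are descriptions and not independent tests. A locus was called at a false discovery rate of 5% in an edgeR quasi-likelihood fit over all loci. At St. 12.5, 68 of the 126 active copies tested differed between the 7 regions (54%), where 38.4% of all loci and 43.9% of the other loci above 50 CPM did. At St. 14 it was 86 of 128 (67.2%), beside 54.9% of all loci and 63.1% of the others above 50 CPM. The 6 and 4 active copies not tested had too few counts at the stage. Without the St. 12.5 NPp replicate 3 the count at St. 12.5 was 74. This and most later counts at other settings stand without the share of all loci called at that setting. A change in the active copies at these settings was not set beside the change over all loci. Of the 132 pairs, 55 were called at both stages, 44 at 1 stage and 33 at neither, and the same was not counted over all loci. The silent copies had too few counts to be tested in any comparison of regions at St. 12.5 or St. 14. At St. 17 and in whole embryos 2 silent copies had enough counts to be tested.

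**Figure D2:**
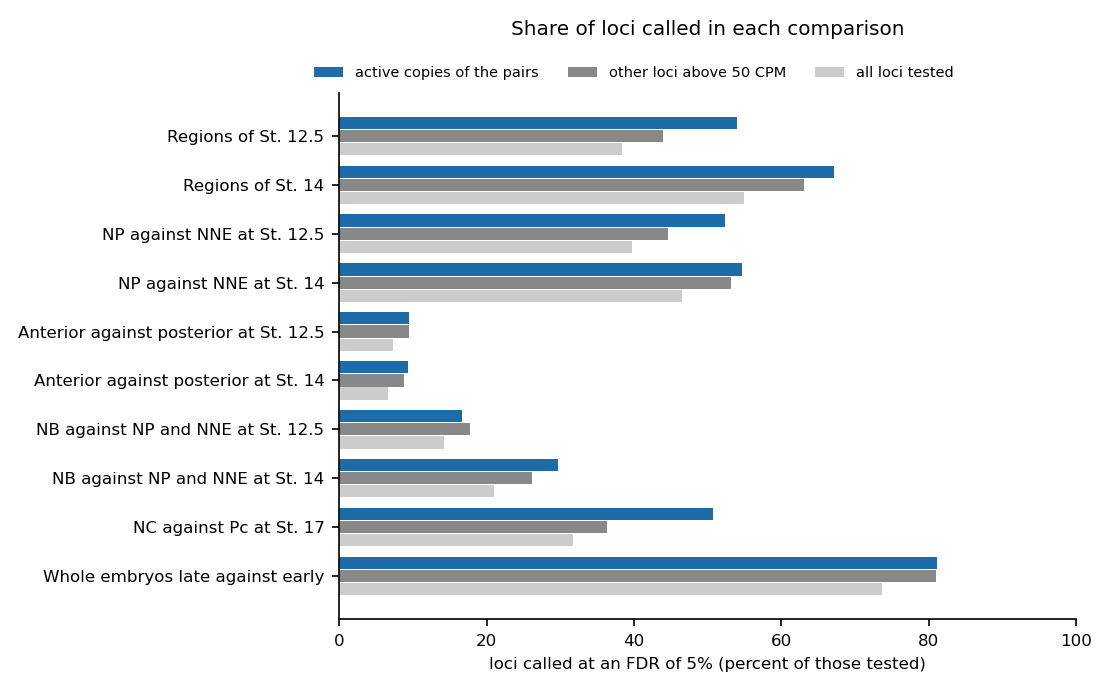
Percent of tested loci called at a false discovery rate of 5% (horizontal axis) in each of the 10 comparisons, for the active copies of the 132 pairs (blue), the other loci above 50 CPM (dark grey) and all loci tested (light grey). The bars of the active copies are longest for the whole embryos (81.1%) and the regions of St. 14 (67.2%) and shortest for anterior against posterior (9.52% and 9.38%).

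The region with the highest mean was most often epidermal, as it was for the other loci above 50 CPM. At St. 12.5, NNE held the highest mean of 43 active copies (32.6%, against 26.7% of the other loci above 50 CPM), NPp of 31 (23.5% against 19.2%) and NPa of 15 (11.4% against 17.9%). At St. 14, NNEp led for 45 (34.1% against 28.1%), ANF/PPE for 27 (20.5% against 11%) and NPp for 20 (15.2% against 20.8%). Means of the highest and the lowest region differed by more than 10-fold (with 1 CPM added) for 22 active copies at St. 12.5 (16.7%, against 12.6% of the other loci) and for 31 at St. 14 (23.5% against 14.8%). These shares are descriptions without a test.

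The contrast between the neural plate and the nonneural ectoderm separates prospective brain and spinal cord from prospective epidermis. At St. 12.5 it called 66 of 126 active copies (52.4%, against 39.8% of all loci and 44.6% of the others above 50 CPM). Of these, 23 were higher in NP (16.4% of all loci, 18.2% of the others above 50 CPM) and 43 higher in NNE (23.3% and 26.5%). Without the NPp replicate 3 the count was 77 (35 higher in NP and 42 in NNE). At St. 14 it called 70 of 128 (54.7%, all loci 46.5%, others above 50 CPM 53.2%), 30 higher in NP (23.2% of all loci, 26.3% of the others above 50 CPM) and 40 higher in NNE (23.3% and 26.8%). The median log2 fold change of the active copies was 0.06 at St. 12.5 (0.07 over all loci) and -0.17 at St. 14 (0.05 over all loci), and the median of its size was 0.85 and 0.73, against 0.60 and 0.55 for loci above 50 CPM. The stages shared 46 of these calls (69.7% of those of St. 12.5 and 65.7% of those of St. 14), all in the same direction. Calls kept between stages were not counted over other loci, so this share does not set the active copies apart. A difference between explants can come from fewer cells that express a gene or from less RNA in each cell, and these cannot be told apart in bulk RNA. The p-values measure the spread between the libraries, some of which shared an embryo number.

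The most abundant active copy of the epidermal side at St. 14 was an unnamed locus, though other loci had larger fold changes. In the libraries of St. 12.5 NNE, loc394967.l stood at 258, 489 and 275 CPM, in NPa at 0, 1.24 and 0.0681 CPM and in NPp at 0, 1.18 and 0.862 CPM. The groups did not overlap, and intermediate values of 33.4 to 171 CPM were found in ANB/PPE. At St. 14 it reached 1947, 756 and 693 CPM in NNEa and 1782, 1443 and 1983 CPM in NNEp, against 7.39 to 97.0 CPM in the 7 NP libraries. The log2 fold change of NP against NNE was -9.34 ± 0.98 (SE) at St. 12.5 (edgeR adjusted p = 1.75e-07) and -5.27 ± 0.90 at St. 14 (adjusted p = 3.56e-05).

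Other active copies followed the same pattern. The tetratricopeptide repeat gene ttc22.l had 134.5, 89.6 and 114 CPM in the 3 libraries of St. 12.5 NNE, 0 in each NPa library and 0, 0 and 0.172 CPM in NPp. With 3456 counts against 2, its ratio was 4015 (95% counting interval 1111 to 33170, adjusted p = 1.49e-07). The tyrosine kinase gene frk.l had 25.7, 71.98 and 127 CPM in NNE and at most 0.696 CPM in an NP library, a log2 fold change of -8.82 ± 1.03 (edgeR adjusted p = 7.7e-07), and at St. 14 it had -6.06 ± 0.90 (adjusted p = 7.37e-06). The locus loc100493941-like.l, which the study annotates as tbc1d24.2, had 50.9, 55.7 and 93.9 CPM in NNE and 0 in all 6 NP libraries, at least 1599-fold lower in NP (2064 counts against a floor of 3 over the group, adjusted p = 2.32e-07). All of these had the S copy silent. Intervals and floors cover counting error only. The highest CPM of ttc22.l, frk.l and loc100493941-like.l lay in St. 12.5 NNE itself, so their p-values there are descriptions.

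The signalling gene rasal1.l was graded rather than absent. In St. 12.5 NNE its libraries had 163, 202 and 159 CPM, in NPa 18.2, 26.4 and 21.5 CPM and in NPp 6.07, 6.24 and 9.65 CPM, so that the 3 groups did not overlap. NP was lower than NNE by -3.93 ± 0.29 on the log2 scale (edgeR adjusted p = 2.81e-09), and at St. 14 by -3.89 ± 0.69 (adjusted p = 5.9e-05). The sodium channel subunits shared this side: scnn1b.s had 23.8, 22.3 and 30.3 CPM in St. 12.5 NNE against 3.25 to 8.97 CPM in NP (log2 fold change -2.47 ± 0.32, adjusted p = 2.76e-06), and scnn1g-like.s had 22.8, 50.9 and 65.7 CPM against 0.203 to 10.5 CPM (-4.44 ± 0.89, adjusted p = 4e-04). Both channel subunits were chosen after their values were seen. The very abundant serp2.l was also epidermal, with 870, 744 and 806 CPM in St. 12.5 NNE and 85.5 to 247 CPM in NP (-2.655 ± 0.263, adjusted p = 8.14e-08).

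Fewer active copies were higher in the neural plate. At St. 12.5 the largest difference was that of cpn1.s, which codes for the catalytic subunit of carboxypeptidase N. It had 72.96, 64.2 and 25.9 CPM in NPa, 8.45, 8.045 and 6.64 CPM in NPp and 0 in the 3 NNE libraries, so NP was at least 314.8-fold higher (2194 counts against the floor of 3, edgeR adjusted p = 5.76e-06). By St. 14 it was at or below 1.12 CPM in every NP library. Its highest CPM of the series lay in St. 12.5 NPa, so its p-value above is a description. The locus loc101732807.l, annotated by the study as the complement protease gene masp1, had 39.8, 16.2 and 1.09 CPM in NPa, 7.38, 3.88 and 1.12 CPM in NPp and 1 count in NNE, a ratio of 322 (95% counting interval 57.7 to 12750, adjusted p = 0.00687, and 0.099 in limma-voom). Its libraries varied widely within NPa. The kinase gene fn3k.l was the last of the largest, at a mean of 13.2 CPM in NP and 0.937 CPM in NNE (log2 fold change 3.56 ± 0.75, adjusted p = 0.000674).

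The pleckstrin homology gene plekho1-like.l and the collagen IV gene col4a6-like.l were both highest in the posterior. In St. 14 NPp, plekho1-like.l had 75.02, 69.5, 84.8 and 111 CPM, in NPa 18.7, 36.8 and 27.4 CPM, in NNEa 4.86, 8.77 and 10.1 CPM and in NNEp 1.42, 4.305 and 2.70 CPM. Every NP library was above every NNE library. The log2 fold change was 3.35 ± 0.35 (edgeR adjusted p = 1.02e-07), and at St. 12.5 it was 5.12 ± 0.76 (adjusted p = 1.51e-05). For col4a6-like.l, a chain of basement membrane collagen, St. 14 NPp had 106, 165, 164.5 and 87.0 CPM, NPa 78.1, 24.0 and 130 CPM, and no NNE library was above 6.69 CPM (4.33 ± 0.67, adjusted p = 1.2e-05). The acyltransferase gene dgat2.l of triglyceride synthesis had 302, 175 and 201.5 CPM in St. 12.5 NPa against 42.5, 29.9 and 32.4 CPM in NNE, and at St. 14 it averaged 71.8 CPM in NP and 8.635 CPM in NNE (3.01 ± 0.45, adjusted p = 7.16e-06). The calcium-binding protein gene rcn3.l had 16.8 to 81.2 CPM in St. 14 NP and 3.45 to 31.1 CPM in NNE, which overlapped (2.17 ± 0.54, adjusted p = 0.00173). The mesoderm loci summed to 54.1 to 182 CPM in these NPp libraries, and their part in the NPp levels was not tested.

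**Figure D3:**
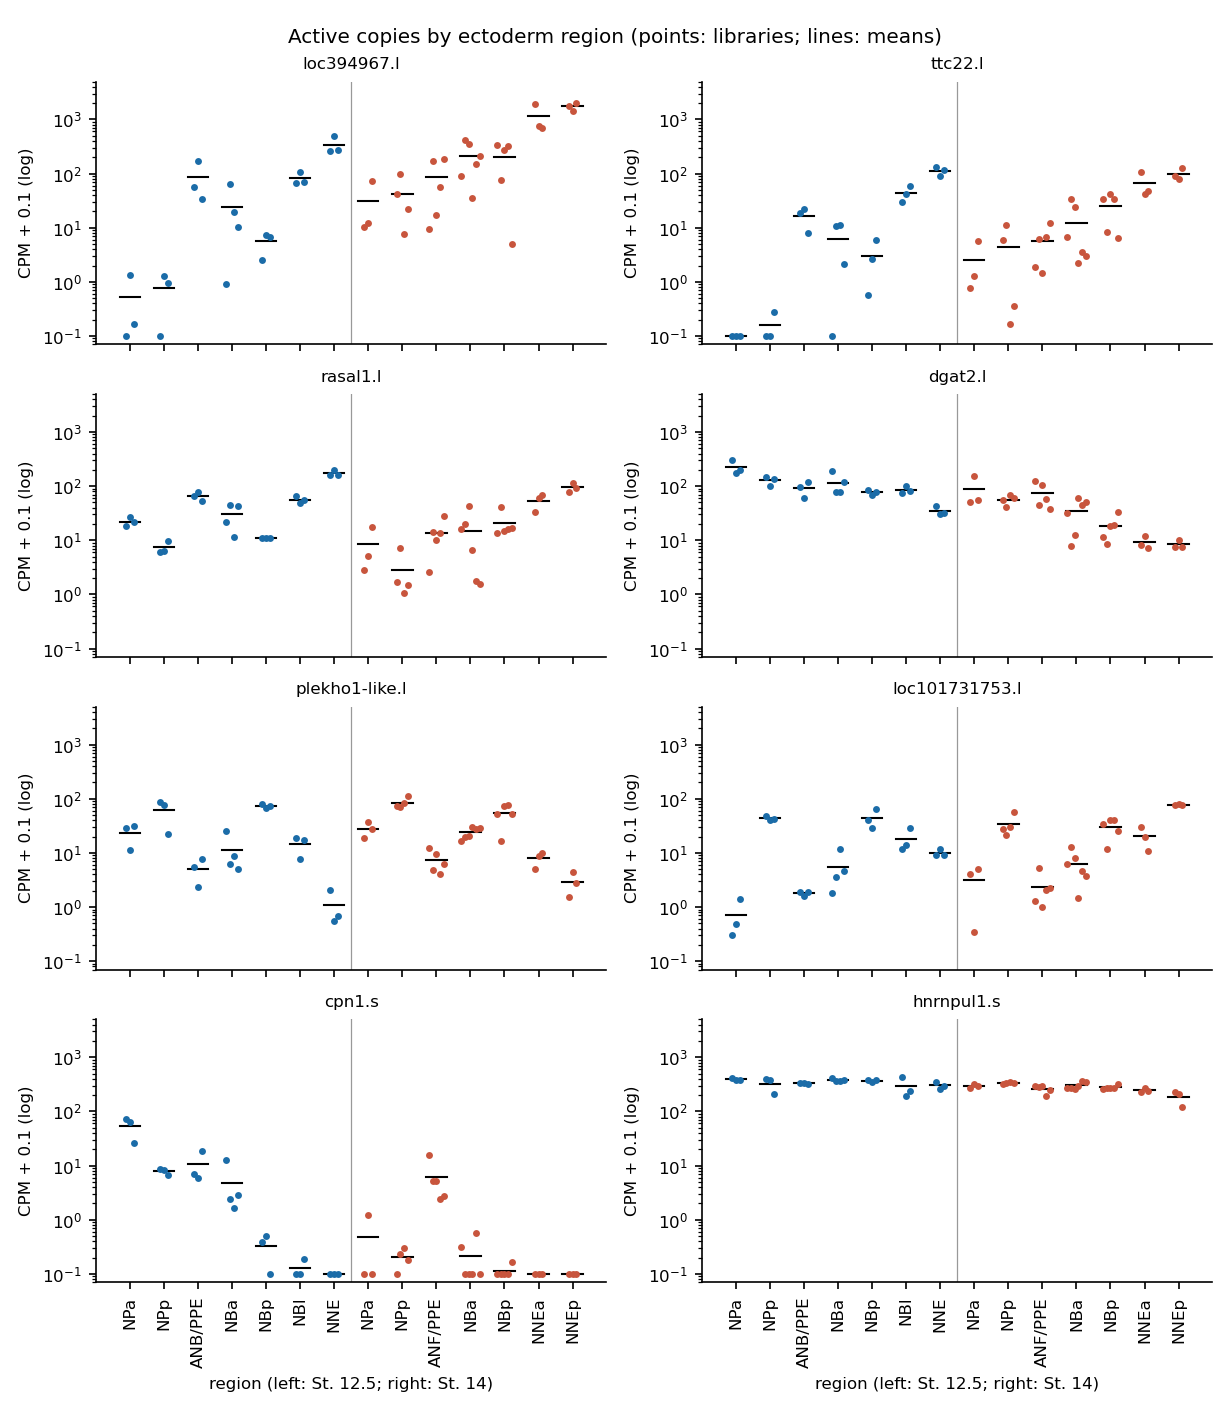
CPM of 8 active copies (vertical axes, log, with 0.1 CPM added) in the 7 regions of St. 12.5 (blue) and St. 14 (red). Points are libraries and lines are means. The loci loc394967.l, ttc22.l and rasal1.l lie highest in nonneural ectoderm at both stages, and dgat2.l in NPa. By mean, plekho1-like.l lies highest in NBp at St. 12.5 and NPp at St. 14, and cpn1.s in NPa at St. 12.5 and ANF/PPE at St. 14. The locus hnrnpul1.s stays between 123 and 435 CPM in all libraries.

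The comparison of anterior with posterior (NPa and NBa against NPp and NBp) asked about position within the neural plate and its border. At St. 12.5 it called 12 of 126 active copies (9.52%, against 7.34% of all loci and 9.5% of the others above 50 CPM), 2 higher in the anterior (2.08% of all loci, 3.2% of the others above 50 CPM) and 10 in the posterior (5.26% and 6.3%). With the dissected embryo as a block the count was 20 (6 anterior and 14 posterior). The anterior calls were cpn1.s, at 25.9 to 72.96 CPM in NPa and 1.52 to 12.4 CPM in NBa against 6.64 to 8.45 CPM in NPp and at most 0.394 CPM in NBp (log2 fold change 3.57 ± 0.58, edgeR adjusted p = 0.000456), and rasal1.l (1.498 ± 0.245, adjusted p = 0.000356).

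The clearest posterior locus was loc101731753.l. It had 48.3, 40.0 and 41.5 CPM in St. 12.5 NPp and 40.0, 28.35 and 64.6 CPM in NBp, against 0.203, 0.387 and 1.29 CPM in NPa and 1.70 to 11.8 CPM in NBa. Posterior and anterior libraries did not overlap, and the log2 fold change was -4.55 ± 0.41 (edgeR adjusted p = 4.71e-07). The other largest posterior calls were loc101731538-like.s (-5.33 ± 1.06, adjusted p = 0.00228, and 0.128 in limma-voom), loc100497499-like.s (-3.82 ± 0.57, adjusted p = 0.000121) and col4a6-like.l (-2.26 ± 0.47, adjusted p = 0.0032). For loc101731538-like.s the NPp libraries had 0.238, 55 and 12.2 CPM, and the one at 55 CPM was also the one with 532 CPM of mesoderm loci, where the others had 29.4 and 28.9 CPM. In NBp it had 0.864, 7.17 and 20.4 CPM beside mesoderm sums of 193, 342 and 797 CPM. The part of mesoderm in the posterior calls was not tested.

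At St. 14 the same contrast called 12 of 128 active copies (9.38%, all loci 6.67%, others above 50 CPM 8.81%), 5 higher in the anterior (3.09% of all loci, 4.15% of the others above 50 CPM) and 7 in the posterior (3.58% and 4.66%). With the embryo as a block none was called (25 of 128 at an unadjusted p under 0.05, lowest edgeR adjusted p = 0.0528), where 262 of 22143 loci were. DESeq2 called 17 (9 anterior and 8 posterior) and limma-voom 12, and leaving out NPa replicate 1 or 2, both with the same embryo number, gave 7 and 6. The zinc finger gene znf423.l had 56.3, 63.7 and 50.1 CPM in NPa and 44.3 to 73.98 CPM in NBa, against 31.8 to 41.9 CPM in NPp and 26.4 to 49.8 CPM in NBp (0.61 ± 0.14, edgeR adjusted p = 0.00843, with the block 0.125). For rbm19.l, an RNA-binding protein of ribosome assembly, the difference was 0.51 ± 0.13 (adjusted p = 0.0178, with the block 0.272). Posterior were loc101731753.l, with 27.45, 21.4, 30.1 and 57.1 CPM in NPp against 4.03, 0.241 and 4.94 CPM in NPa (-2.885 ± 0.459, adjusted p = 0.000242, with the block 0.0575), plekho1-like.l (-1.40 ± 0.28, adjusted p = 0.00202, with the block 0.131), loc100490725.l (-1.30 ± 0.31, adjusted p = 0.00983, with the block 0.124) and the glycosyltransferase gene pomgnt2.l (-1.20 ± 0.26, adjusted p = 0.00396, with the block 0.168). The stages shared 4 calls (33.3% of each), all in the same direction, and the share over other loci was not counted.

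The neural border, from which neural crest arises, was represented by NBa and NBp and set against the mean of NP and NNE. The lateral border NBl of St. 12.5 did not enter this contrast. At St. 12.5 this called 21 of 126 active copies (16.7%, against 14.2% of all loci and 17.7% of the others above 50 CPM), 6 higher in the border (5.77% of all loci, 7.22% of the others above 50 CPM) and 15 lower (8.41% and 10.5%). The split changed without a single library: leaving out the St. 12.5 NPp replicate 3 gave 30, with 17 higher and 13 lower. The change over all loci was not set beside it. Higher were plekho1-like.l (2.13 ± 0.45 on the log2 scale, edgeR adjusted p = 0.00308), with 79.7, 66.55 and 73.8 CPM in NBp but 4.91 to 25.3 CPM in NBa, col4a6-like.l (1.97 ± 0.44, adjusted p = 0.00444), rcn3.l (0.88 ± 0.22, adjusted p = 0.0102) and loc100490725.l (0.66 ± 0.13, adjusted p = 0.00144). The contrast averages log levels, the NBp libraries of plekho1-like.l lay within the range of those of NPp, and the mesoderm loci summed to 193 to 797 CPM in NBp. Lower were aadacl4.s (-1.937 ± 0.335, adjusted p = 0.000631), named after an esterase family, a2m.s (-1.86 ± 0.52, adjusted p = 0.0213), the coiled-coil gene ccdc63.l (-1.86 ± 0.45, adjusted p = 0.00785) and loc100485767-like.l (-1.55 ± 0.36, adjusted p = 0.00638). The call of a2m.s was lost without NBp replicate 1 or 2 or NNE replicate 3.

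At St. 14 it called 38 of 128 (29.7%, all loci 21%, others above 50 CPM 26.2%), 26 higher in the border (13.1% of all loci, 18.4% of the others above 50 CPM) and 12 lower (7.85% and 7.79%). The count fell to 18 with the embryo as a block (9 higher and 9 lower), and with the prefix of the library codes as a covariate it was 26 (12 higher and 14 lower). Of the libraries in this contrast, only some of NBa and NBp, NBp replicate 5 among them, carried the prefix B100. Prefix and border are therefore partly confounded. Largest was loc100489107.s at 6.25 ± 1.31 (edgeR adjusted p = 0.00169), which rested on 3 of 11 libraries: NBa replicates 5 and 6 (33.2 and 39.04 CPM), both of embryo 2, and NBp replicate 5 (111 CPM), whereas the other 8 border libraries had 0 to 1.68 CPM. Its adjusted p was 0.362 with the block, 0.138 with the prefix and 0.124 in limma-voom. Next were loc100497513-like.s (1.71 ± 0.46, edgeR adjusted p = 0.0104, with the block 0.574, with the prefix 0.149) and plekho1-like.l (1.27 ± 0.23, adjusted p = 0.000435). Behind them was loc733553.l (1.04 ± 0.35, adjusted p = 0.0351, with the block 0.7, with the prefix 0.266, and lost with any of 12 libraries left out). The lower ones were ccdc63.l (-2.49 ± 0.53, adjusted p = 0.0019), loc100485767-like.l (-2.24 ± 0.50, adjusted p = 0.00264, with the block 0.0541), the centriole gene cep128-like.l (-1.525 ± 0.249, adjusted p = 0.000158) and tmem72-like.l (-1.36 ± 0.44, adjusted p = 0.0293, with the block 0.0916). Of the 8, plekho1-like.l, ccdc63.l and cep128-like.l kept their call with the block. The stages shared 8 calls (38.1% of those of St. 12.5 and 21.1% of those of St. 14), and the share over other loci was not counted.

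At St. 17 the neural crest and the placodes, a pair of tissues that arise from neighbouring ectoderm, were compared directly. The crest marker foxd3.l averaged 161 CPM in NC and 0.0748 CPM in Pc. Of 124 active copies tested, 63 were called (50.8%, against 31.7% of all loci and 36.4% of the others above 50 CPM), 19 higher in NC (12.6% of all loci, 14% of the others above 50 CPM) and 44 higher in Pc (19% and 22.3%). The median log2 fold change of the active copies was -0.19 (0.06 over all loci). Only 2 Pc libraries entered, and the counts without either of them stand without the share of all loci. Without Pc replicate 1 the count was 38 (5 higher in NC) and without replicate 2 it was 29 (4 higher in NC), with the remaining library assumed to vary as the NC libraries did.

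The genes with znf names in the transcription factor list stood on the side of the neural crest. The libraries of NC had 86.7, 75.2, 98.8 and 90.8 CPM of znf423.l and those of Pc 33.6 and 26.2 CPM, which did not overlap (1.64 ± 0.20, edgeR adjusted p = 0.000438). For znf532.l NC had 18.8, 16.7, 34.0 and 25.65 CPM and Pc 8.05 and 9.35 CPM (1.54 ± 0.33, adjusted p = 0.00635, lost without either Pc library). For znf383.s the log2 fold change was 1.04 ± 0.29 (adjusted p = 0.0223). The remaining member of the list, tcf25.l, was called elsewhere, lower in NP than in NNE at both stages (-0.78 ± 0.16, adjusted p = 0.000648, and -0.36 ± 0.11, adjusted p = 0.00828). Largest on the side of NC was loc101732807.l, with 5.42, 14.8, 3.09 and 18.9 CPM against 0.163 and 0.0748 CPM, a ratio of 91.55 (95% counting interval 31.2 to 445, adjusted p = 0.00178, and 0.0574 in limma-voom), and plekho1-like.l followed with 25.15, 37.2, 17.9 and 40.3 CPM against 5.85 and 4.11 CPM (2.685 ± 0.397, adjusted p = 0.00108).

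Higher in the placodes was above all anpep.s, which had 174 and 92.3 CPM in Pc and 0.980, 1.62, 1.86 and 0.621 CPM in NC, a log2 fold change of -6.63 ± 0.39 (edgeR adjusted p = 1.27e-05). Beside it stood the unnamed loci loc100497499-like.s (-4.60 ± 0.45, adjusted p = 0.000157) and loc100495360.s (151 and 105 CPM in Pc, 0.344 to 12.4 CPM in NC, -4.18 ± 0.72, adjusted p = 0.00228). The calcium sensor gene rcvrn.1.l (recoverin) followed (335 and 147 CPM in Pc, 0, 31.55, 0 and 19.0 CPM in NC, -4.16 ± 1.31, adjusted p = 0.0366, and 0.315 in DESeq2), whose call was lost without either Pc library or without NC replicate 4. Among dissected embryos, rcvrn.1.l differed by embryo, with a median of 11.3 CPM in embryo 4 and at most 0.259 CPM in embryo 7. The NC and Pc libraries carry no embryo number, and the part of the embryo in the call of rcvrn.1.l was not tested. The nonneural ectoderm marker krt12.s averaged 4223 CPM in Pc, 1431 CPM in NC and 4062 CPM in St. 12.5 NNE. The epidermal marker tp63.s went the other way, with 78.7 CPM in Pc and 107 CPM in NC. The 8 active copies described on the epidermal side of St. 12.5 were chosen by fold change, level or family, or after their values were seen. No share over all loci higher in NNE was counted beside them, and overlap of libraries was not counted over other loci. Of all 63 active copies called at St. 17, 44 were higher in Pc, so the counts below do not set these 8 apart. Of these 8, 7 were also higher in Pc than in NC. They were frk.l (89.6 and 53.2 CPM against 3.59 to 16.0 CPM, -2.86 ± 0.46, adjusted p = 0.0016), ttc22.l (86.6 and 72.4 CPM against 21.8 to 25.7 CPM, -1.68 ± 0.18, adjusted p = 0.000214), rasal1.l (60.9 and 58.4 CPM against 5.29 to 13.9 CPM, -2.76 ± 0.34, adjusted p = 0.000435), loc100493941-like.l (28.2 and 25.9 CPM against 0.457 to 5.29 CPM, -3.62 ± 0.70, adjusted p = 0.00405), serp2.l (557 and 519.8 CPM against 207 to 265 CPM, -1.045 ± 0.146, adjusted p = 0.000856), scnn1b.s (53.5 and 49.96 CPM against 9.98 to 20.6 CPM, -1.82 ± 0.28, adjusted p = 0.00134) and scnn1g-like.s (46.2 and 44.8 CPM against 7.45 to 25.4 CPM, -1.44 ± 0.38, adjusted p = 0.0186). In these 7 the libraries of NC and Pc did not overlap. The exception was loc394967.l, with 53.6 and 27.2 CPM in Pc and 6.77 to 128.6 CPM in NC (1.11 ± 0.83, adjusted p = 0.334).

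Whole embryos were compared late (St. 16-17 and 18-19) against early (St. 11-11.5 and 12), over all germ layers. Of the 132 active copies, 107 were called (81.1%, against 73.7% of all loci and 81% of the others above 50 CPM), 54 higher late (39.3% of all loci, 37.3% of the others above 50 CPM) and 53 higher early (34.4% and 43.7%). The mean of the highest and that of the lowest stage differed by more than 10-fold for 26 active copies (19.7%, against 9.88% of the other loci above 50 CPM), and St. 11-11.5 held the highest mean of 42 (31.8% against 27.9%) and St. 18-19 of 29 (22% against 15.9%).

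Among the largest increases were those of myh8-like.l and smyd1.l. The myosin heavy chain gene myh8-like.l (annotated by the study as myh4) had no count in either library of St. 11-11.5, 61.1 and 31.8 CPM at St. 13, 26.1 and 19.8 CPM at St. 14, 181 and 207 CPM at St. 16-17 and 255 and 303 CPM at St. 18-19. Late embryos held 14494 counts against 2 early, a ratio of 6799 (95% counting interval 1882 to 56150, edgeR adjusted p = 7.2e-10). The histone methyltransferase gene smyd1.l of heart and skeletal muscle went from 0 and 0.0588 CPM to 85.1 and 107.9 CPM over the same stages (9.64 ± 0.40, adjusted p = 1.41e-09). Muscle creatine kinase, ckm.l, chosen after its values were seen, rose from 4.96 and 9.885 CPM to 144 and 171 CPM (3.97 ± 0.25, adjusted p = 2.87e-08). The muscle actin actc1.l, a marker and not a member of these pairs, averaged 0.0294 CPM at the first of these stages and 521 CPM at the last. The myomesin gene myom2.s, also known from muscle and chosen after its values were seen, went the other way, from 3.12 to 14.1 CPM in the 4 early libraries to 2.14 to 6.59 CPM in the 4 late ones (-1.11 ± 0.43, adjusted p = 0.0339), and its highest regional mean at St. 12.5 was that of NNE (23.95 CPM). In the pairs of myh8-like, smyd1 and ckm the S copy was silent, with at most 0.354 CPM for myh8-like.s, 0.433 CPM for smyd1.s and 0.127 CPM for ckm.s. In dissected tissue the highest values of these 3 were in the undivided NP of St. 14 (17.6 and 10.0 CPM of myh8-like.l), where the mesoderm loci summed to 239 and 2230 CPM.

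Other genes rose outside the dissected ectoderm or late within it. The connexin gene gjb1.l went from 17.4 and 8.71 CPM at St. 11-11.5 through 387 and 392.5 CPM at St. 12.5 to 642 and 719 CPM at St. 18-19 (3.69 ± 0.18, edgeR adjusted p = 4.11e-09), while no explant library was above 19.2 CPM. Protease inhibitor a2m.s was also far higher in whole embryos than in explants, at 845 and 644 CPM at St. 11-11.5 and 1740 and 1754 CPM at St. 18-19 (0.58 ± 0.08, adjusted p = 2.78e-05), against 243 to 569 CPM in St. 12.5 NPa and 1.22 to 8.25 CPM in St. 14 NNEp. The gene sel1l3.s had 0 counts in the 4 early libraries and 8.96 to 18.8 CPM in the 4 late ones, at least 272-fold higher (871 counts against the floor of 3, adjusted p = 5.57e-08). Its highest values were those of ANF/PPE at St. 14 (3.48 to 62.5 CPM).

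Other active copies were lower late. The RNA of velo1.l, which codes in Xenopus for a protein of the Balbiani body of the oocyte, went from 53.2 and 37.95 CPM at St. 11-11.5 to 12.4 and 11.2 CPM at St. 12 and 2.199 and 1.67 CPM at St. 18-19 (-3.84 ± 0.19, edgeR adjusted p = 4.45e-09). The dipeptidyl peptidase gene dpp4.l went from 179 and 139 CPM to 15.0 and 12.4 CPM (-3.16 ± 0.13, adjusted p = 1.61e-09), and kiaa1107.l, annotated by the study as btbd8, from 60.05 and 90.8 CPM to 3.125 and 3.34 CPM (-3.90 ± 0.34, adjusted p = 4.76e-07). In each of these 3 the early and late libraries did not overlap. For emp1.l the difference was -4.04 ± 1.45 (edgeR adjusted p = 0.0237), but its libraries of a stage were far apart. The locus passed the rule through its highest level, 50.4 CPM in a St. 11-11.5 library. It kept its call with the run of library codes as a block, while limma-voom gave an adjusted p of 0.19, and leaving out any of 4 libraries ended the call. The exonuclease gene exosc10.l of the RNA exosome fell from a mean of 238 CPM at St. 11-11.5 (-0.89 ± 0.08, adjusted p = 9.8e-07).

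Some further members of the transport and matrix lists were also higher in late whole embryos (chosen after their values were seen). Not all of the transport list were highest late: scnn1b.s and slc35a4.s had their highest whole embryo mean at St. 11-11.5, and scnn1g-like.s and tmem72-like.l at St. 14. The matrix metalloprotease gene mmp28.l differed by 5.52 ± 0.26 on the log2 scale (edgeR adjusted p = 3.67e-09), the organic anion transporter gene abcc3.l by 7.59 ± 0.61 (adjusted p = 2.39e-07) and the potassium channel subunit gene kcne1-like.l by 2.96 ± 0.29 (adjusted p = 1.45e-06). Of the transcription factor list, znf423.l differed by 2.45 ± 0.16 (adjusted p = 4.42e-08), znf532.l by 2.69 ± 0.19 (adjusted p = 6.93e-08) and tcf25.l by 0.49 ± 0.08 (adjusted p = 0.000167), all higher late, whereas znf383.s had a log2 fold change of -0.37 ± 0.17 (adjusted p = 0.0643).

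**Figure D4:**
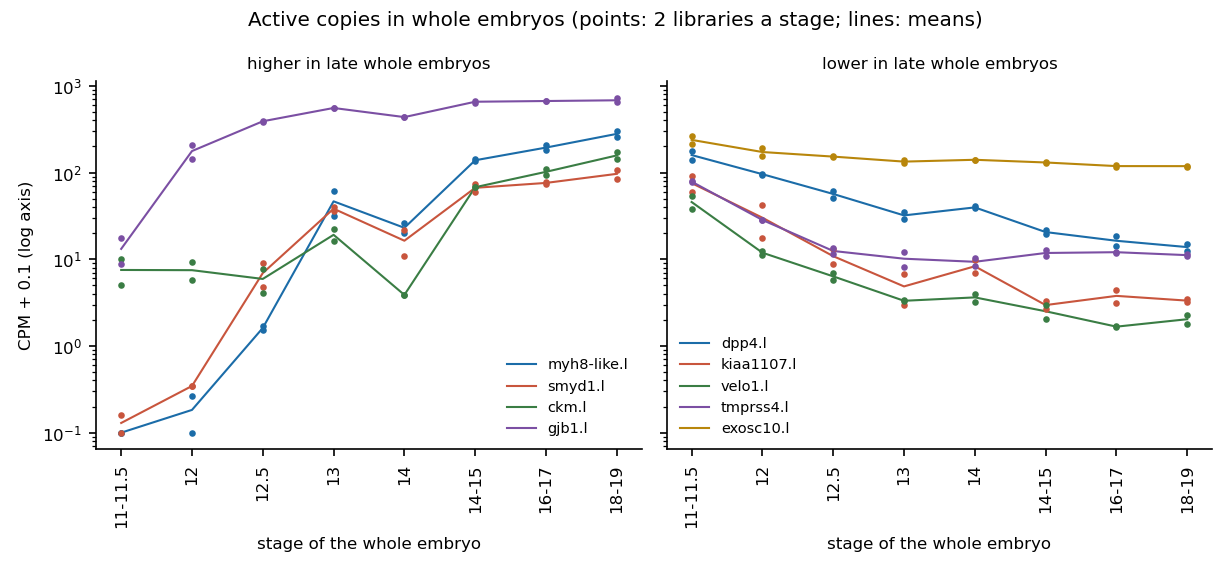
CPM of 9 active copies (vertical axis, log, with 0.1 CPM added) in whole embryos of 8 stages. Points are the 2 libraries of a stage and lines are means. On the left myh8-like.l, smyd1.l, ckm.l and gjb1.l are higher late, and on the right dpp4.l, kiaa1107.l, velo1.l, tmprss4.l and exosc10.l are lower late.

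Some active copies differed widely between the 2 whole embryo libraries of a stage. A difference above 8-fold (with 1 CPM added) was seen at 7 of 8 stages for rcvrn.1.l and xetrov90021168m.l, at 3 stages for emp1.l and at 1 stage each for loc394967.l, loc733553.l, frk.l and loc100497499-like.s. These were chosen after their values were seen. For rcvrn.1.l, library 1 of each stage other than St. 14 had 0 to 0.0624 CPM and library 2 had 16.8 to 115 CPM, and at St. 14 the values were 0.0611 and 0 CPM. For xetrov90021168m.l the order was opposite: library 1 fell from 75.9 CPM at St. 11-11.5 to 17.1 CPM at St. 18-19, library 2 had at most 0.2 CPM, and both had 0 at St. 14. The same split was seen among dissected embryos for rcvrn.1.l. Embryos 4, 5, 10 and 13 had medians of 11.3, 5.46, 7.19 and 7.79 CPM over their regions, and in embryos 2, 7, 11 and 14 no library was above 0.259 CPM. Embryo 12 had 0, 0 and 80.6 CPM. No explant library with an embryo number had more than 0.577 CPM of xetrov90021168m.l, and an undivided NB library without one had 12.4 CPM. The S copies rcvrn.1.s and xetrov90021168m.s stayed at or below 0.278 and 0.277 CPM, as the rule required of them.

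**Figure D5:**
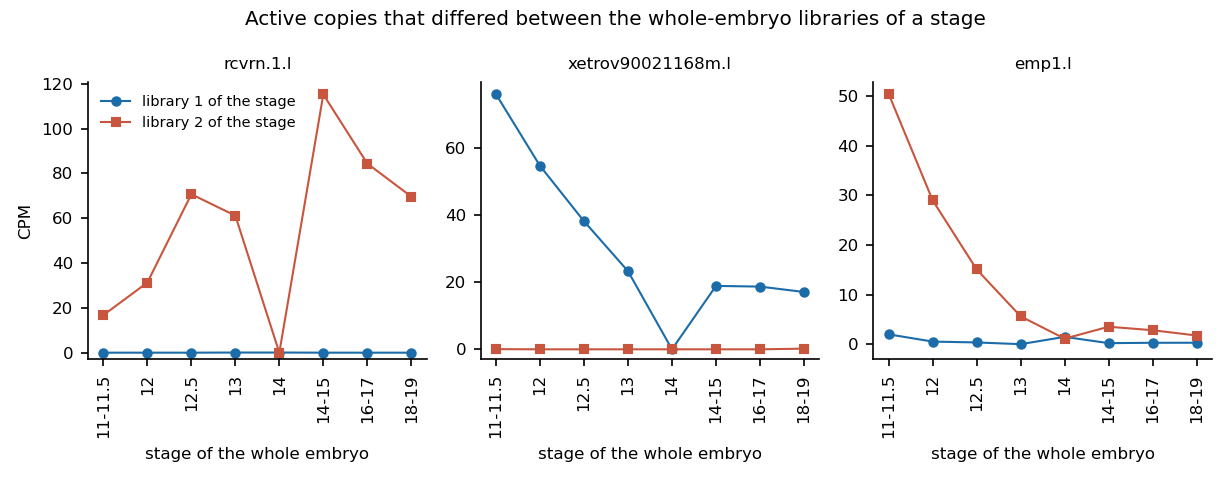
CPM (vertical axes) of rcvrn.1.l, xetrov90021168m.l and emp1.l in library 1 (blue circles) and library 2 (red squares) of each whole embryo stage. At 7 of 8 stages rcvrn.1.l is found in library 2 only and xetrov90021168m.l in library 1 only or nearly so, and emp1.l is higher in library 2 at every stage but St. 14 (50.4 against 2.04 CPM at St. 11-11.5).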

How the data were processed

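RNA of dissected ectoderm and whole embryos was sequenced as stranded, paired 100 bp reads. The authors aligned the reads to the Xenopus laevis genome 9.1 with TopHat2 2.0.14 and counted them per locus with HTSeq (version not given in the sources used here), and the deposited table holds raw counts. Its 5 summary entries (15.67 to 25.51% of a library, reads without a unique place among them) were left out, and no column was left unused (0).

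CPM were computed with TMM factors in edgeR 4.0.16 (R 4.3.3, limma 3.58.1). Each stage was fitted in edgeR with a mean for each region or stage, keeping loci that exceeded 10 counts in 2 or more of its libraries, and quasi-likelihood tests were adjusted by the Benjamini-Hochberg method over all loci tested, with a threshold of 5%. The study's own test was limma-voom, which was tried as an alternative with DESeq2 1.42.0, RLE scaling, other count filters, the embryo or the prefix of the library code (B100, 9 libraries, or B108, 70) as a term, and each library left out in turn. The labels number the dissected embryos, so that regions are paired through the embryo: deviations from the region means had a median correlation of 0.227 within and -0.11 between embryos at St. 12.5, and of 0.143 and -0.0214 at St. 14. Libraries without an embryo number were each their own block. In whole embryos, libraries of the same run of codes deviated together at the 7 stages outside St. 14 (correlations 0.31 to 0.639 over 21 pairs of stages), and a block on the run was added after seeing the data.

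The pairs, the gene lists and the tests were chosen with earlier results of these data known. Named were the 15 highest active copies, those beside the thresholds, and up to 4 in each direction of a contrast. These 4 had the largest log2 fold change at a mean of at least 10 CPM. Also named were the members of the transcription factor and signalling lists, the 8 highest with a silent L copy and the 5 highest with 0 counts on the silent copy. A locus that this rule names is not reported here. No 2 libraries were identical, and the 96 pairs of replicates differed by 7.83 to 187 times the counting noise (chi-square per degree of freedom). No sequences are printed, and no coordinates, because the annotation at hand is of another build. It served only for names and for which genes neighbour each other. Figures were drawn with matplotlib 3.10.9 in python 3.11.15.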

Additional observations from a re-analysis of the deposited data

Results flagged for a closer look

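Among 67 gene and region combinations of the named results with 4 to 10 libraries, 3 held a library far from the rest of its group on the log2(CPM + 1) scale, and chance alone gives about 1 in 20 groups. In St. 14 NBp replicate 2, plekho1-like.l stood at 16.6 CPM, where the other 4 libraries had 51.7 to 76.3 CPM. In St. 14 NPp replicate 2, loc100489107.s had 0.822 CPM, where the other 3 libraries had 0. In St. 14 NBp replicate 5, loc100489107.s had 111 CPM, where the next library had 1.68 CPM.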

How the results depend on the processing

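The count of pairs depended on the thresholds: an upper threshold of 100 CPM gave 60 pairs (40 with the S copy silent), one of 20 CPM gave 291 (195), and a lower threshold of 0.5 CPM gave 87. All other settings of the rule gave 106 to 174 pairs, with the S copy silent in 62.7% (dissected libraries only) to 69.8% (whole embryos only). The embryo as a block changed the count of active copies called to 20 from 12 for anterior against posterior at St. 12.5, to 0 from 12 at St. 14 and to 18 from 38 for the neural border at St. 14, and moved no other count of calls by over 1.5 times. For whole embryos, a replicate block on the run of library codes, chosen after seeing the data, gave 113 calls in place of 107 and ended none of the named calls. Apart from the block for anterior against posterior at St. 14, such counts stand without the share of all loci called at that setting. No paired analysis was possible for St. 17 because its labels give no embryo number. With each library left out in turn, anterior against posterior at St. 14 gave 6 to 16 calls, NC against Pc 29 to 65, and the other comparisons stayed within 1.5 times of their count. Of 1694 alternative values of the 60 named results none turned its direction and 46 ended a call, 26 of them with a library left out. At 8.9 to 18 counts per CPM, a silent copy near 0.1 CPM rests on 1 or 2 counts in a library. Within a single library, silence below that was not detectable as different from a low level.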

Other observations

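The undivided neural plate of St. 14 stood in no comparison. Its libraries had 70.15 and 163 CPM of rcn3.l, 13.1 and 43.7 CPM of smyd1.l and 7.29 and 57.9 CPM of ckm.l, beside mesoderm sums of 239 and 2230 CPM.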
